A study of Mus musculus with 60 samples.

Results

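The comparison described here sets WTA, a mouse cell line carrying transfected wild-type Pabpn1 (level: high, per the labels), against IM2, its untransfected counterpart. It was taken from the array titles and holds 24 of the 60 arrays of the series, which come from 3 cultures of WTA and 3 cultures of IM2. The other 36 arrays belong to WTD (wild-type Pabpn1, labelled low), D7E (mutant Pabpn1, labelled high) and D7F (mutant Pabpn1, labelled low), 3 cultures each, and were used to ask which differences set WTA apart. Each culture's RNA shared 2-colour spotted arrays with a common IM2 reference, in both dye orientations and on 2 array parts that carry different probes. The IM2 arrays therefore set IM2 cultures against IM2 RNA. All samples carry the tag OPMD (oculopharyngeal muscular dystrophy). Since each genotype has 1 line per level, transgene and line cannot be told apart, and the labels name neither the promoter of the transgene, the mutation, the tissue of the cells, nor whether cultures were grown apart in time. All p-values therefore rest on how cultures of a line vary, which may be technical.

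The nuclear poly(A)-binding protein is the product of Pabpn1. It coats the growing poly(A) tail of a new transcript, stimulates poly(A) polymerase and takes part in setting tail length, in choosing among polyadenylation sites and in turning over certain nuclear RNAs. OPMD is a late-onset muscle disease caused in people by a lengthened alanine stretch near the start of this protein, which then collects in the nuclei of muscle fibres. Wild-type protein at a raised level is the usual control for the mutant one.

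All values are log2 ratios of a culture to the IM2 reference, averaged over both dye orientations, and every size holds only if the deposited ratios are base 10 logarithms, which the sources do not state. A ratio gives no level, so it does not show whether a marker of a cell type is expressed, only whether it differs. Over the 9710 probes tested (2 or more measured cultures per line), the 3 WTA cultures correlated with each other at r = 0.415 to 0.591 and the 3 IM2 cultures at 0.0234 to 0.0751. The share of filled values lying at the limits of the deposited scale was 2.43% to 20.4% on WTA arrays and 2.45% to 33.2% on IM2 arrays, and these values were treated as not measured. By a rule of over 20% at a limit or under 60% of rows filled, 2 of 12 WTA arrays (both of culture 1) and 4 of 12 IM2 arrays were of low quality, against 0 of 36 in the other lines.

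The transfected gene stood higher in the WTA cultures than in any other culture of the series. Pabpn1 stood at log2 ratios of 2.47, 2.22 and 1.89 in the 3 WTA cultures and at -0.24, -0.13 and -0.16 in the 3 IM2 cultures. It was positive on 6 of 6 WTA arrays of its array part, between 1.87 and 2.62. The WTA and IM2 cultures did not overlap, and the difference was 2.37 ± 0.14 (SE), or 5.17-fold (limma, adjusted p = 3.8e-06). The 9 cultures of the other transfected lines lay between 0.83 and 1.71, below all WTA cultures. WTA exceeded the mean of those 3 lines by 0.87 ± 0.11 (adjusted p = 0.0024), WTD by 0.76 ± 0.14 (adjusted p = 0.016) and D7F by 1.28 ± 0.14 (adjusted p = 0.0018), while its 0.58 ± 0.14 over D7E missed the threshold (adjusted p = 0.057). With every array centred and scaled to a common spread, the excess over the mean of the other lines was 0.14 (adjusted p = 0.835). The probe may detect the endogenous as well as the transfected transcript.

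**Figure D1:**
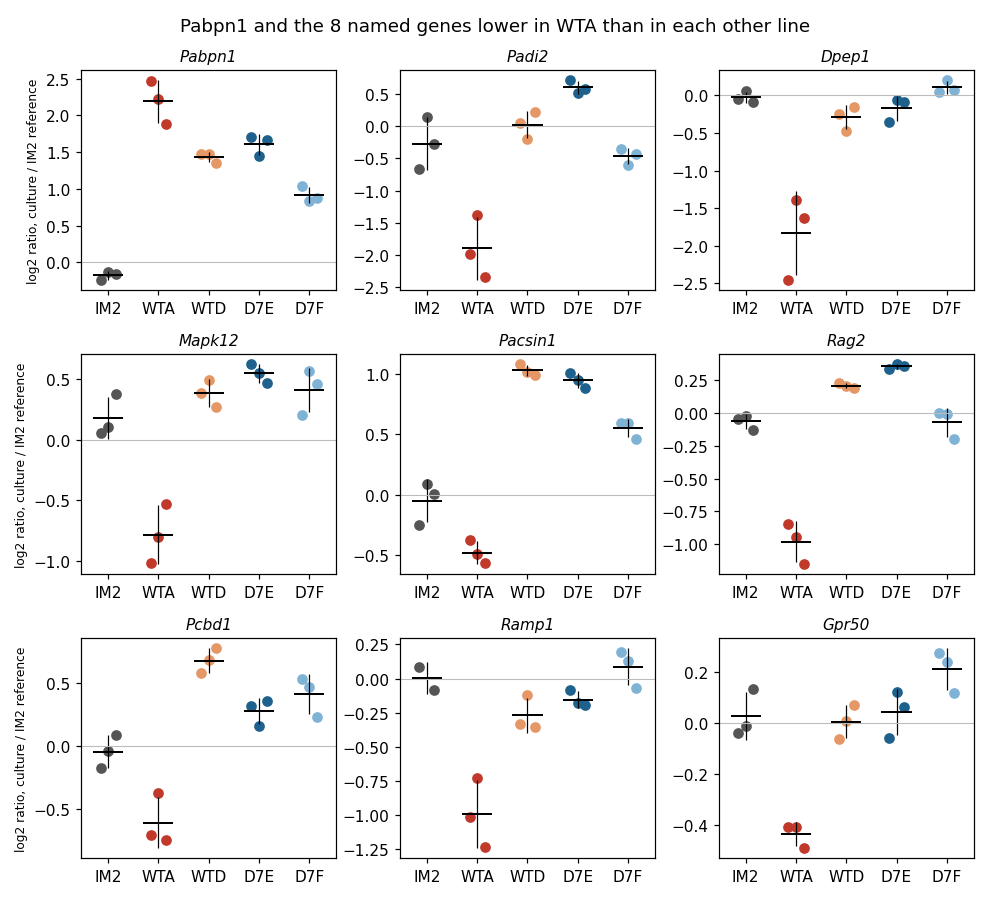
Log2 ratio of each culture to the IM2 reference (vertical axis) in the 5 lines (horizontal axis) for Pabpn1 and for the 8 named genes that were lower in WTA than in each other line; points are cultures, bars are means and SD. WTA cultures of Pabpn1 lie between 1.89 and 2.47, and for each of the other 8 genes all WTA cultures lie below all cultures of the other 4 lines.

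Against IM2, 1121 of 9710 probes passed the threshold in WTA (limma, Benjamini-Hochberg adjusted p below 0.05), which is 11.5% of those tested. Of these, 502 (5.17%) were higher in WTA and 619 (6.37%) were lower, and the median difference over all probes was 0.02. The shares given below for groups of genes are to be read against these percentages. On part I, 8.08% of all probes were higher and 7.25% lower (median 0.13), and on part II 2.49% and 5.57% (median -0.05). The lists were not split by part, so the baseline of a list depends on where its probes lie. In WTD, D7E and D7F, 2.08%, 4.12% and 1.6% of all probes were higher than in IM2 and 4.95%, 8.22% and 2.91% lower. Among probes measured in all 6 cultures, the WTA and IM2 values did not overlap for 2006 of 6214 (32.3%). Of the 1121 probes, 470 did not pass with the same sign in any of WTD, D7E and D7F, and 222 passed in all 3, comparisons that share the IM2 cultures with this one.

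The calls rest on a spread estimated over all 5 lines. With only the 6 cultures of WTA and IM2 in the fit, 1 probe of 10628 passed, and 1792 had an unadjusted p below 0.05, against 2635 in the fit over 5 lines. Without WTA culture 1 the count was 605, without IM2 culture 1 it was 721, and without the low-quality arrays it was 582. In that last setting 231 probes were higher and 351 lower of 11422 tested. Counts given below without the low-quality arrays are to be read against these, not against the percentages of the main fit.

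Among the largest rises, several have known roles. The largest rises and falls, here and against the other transfected lines, were chosen among probes whose cultures did not overlap. A lack of overlap in them follows from that choice and is not separate evidence. Actr1a, the Arp1 filament subunit of dynactin, which links dynein to its cargo, stood at 2.02, 1.22 and 1.92 in WTA and at -1.09, -0.49 and -0.69 in IM2. The groups did not overlap, and WTA was higher by 2.48 ± 0.23 (adjusted p = 9.2e-05). Pdcd4, an inhibitor of translation initiation, rose by 1.76 ± 0.21 (adjusted p = 0.00045), from IM2 values of -0.36 to -0.12 to WTA values of 0.95 to 1.90. Dpt, which encodes the matrix protein dermatopontin, rose by 1.71 ± 0.24 (adjusted p = 0.001). Rb1, the retinoblastoma protein that holds back entry into the cell cycle, rose by 1.61 ± 0.28 (adjusted p = 0.0035), and its 3 WTA values of 1.01, 1.08 and 2.00 all lay above the IM2 values of -0.51 to 0.23.

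Other genes of that rank were Magef1 (2.30 ± 0.47), Sohlh2, a germ-cell transcription factor (1.95 ± 0.34), Dnaja4, a cochaperone (1.93 ± 0.35), Yipf7 (1.75 ± 0.20), the nucleotide receptor gene P2ry2 (1.70 ± 0.40) and Vamp3, a vesicle fusion protein (1.62 ± 0.36). Dnaja4 stood at -0.76, 0.12 and -1.34 in IM2, so IM2 values below 0 add to its difference, as they do for Actr1a. Neither gene reversed under any alternative. For 3 more, 1 or more IM2 cultures lay far below 0 and the direction of the difference depended on the sign of the IM2 ratios. Scd1, a fatty acid desaturase, stood at -2.25, -2.50 and -0.89 in IM2 and at 0.38, 0.00 and -0.48 in WTA, and the difference of 1.84 ± 0.47 became -1.92 when the IM2 ratios were given the opposite sign. Snrpb, a core spliceosome protein (1.97 ± 0.44), and Tcte3 (2.03 ± 0.55) likewise became -0.77 and -0.17. IM2 stands on both sides of those arrays, so no gene marks their direction. P2ry2 missed the threshold without IM2 culture 3 and Vamp3 without IM2 culture 1. Scd1 missed it without IM2 culture 1 or 2 or WTA culture 1 or 2, and Tcte3 without WTA culture 1 or 3 or WTD culture 1, with adjusted p-values of at most 0.103.

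Tcstv1, a gene of the earliest embryonic stages, fell most. It stood at -3.85, -2.39 and -3.34 in WTA and at -0.04, -0.27 and -0.02 in IM2, so the groups were far apart, and the difference was -3.08 ± 0.31 (adjusted p = 0.00018). Col11a1, a fibrillar collagen, fell by 2.53 ± 0.19 on the log2 scale (adjusted p = 2.7e-05), and Tfpi2, which inhibits matrix proteases, by 2.22 ± 0.21 (adjusted p = 0.00012). Crisp2, a secreted protein of the testis, stood at -2.05 ± 0.26 against IM2, and Osmr, the receptor of oncostatin M, at -1.91 ± 0.28. Tenm3, a cell adhesion protein, was uneven. Its WTA values were -4.58, -1.39 and -0.64, and the difference of -2.38 ± 0.72 (adjusted p = 0.047) missed the threshold in 12 of 15 fits that each left out 1 culture of the 5 lines. Dhrs3, a retinaldehyde reductase, was uneven too, at -3.52, -0.93 and -1.31, and its call (-1.90 ± 0.51, adjusted p = 0.032) was lost without IM2 culture 1 or IM2 culture 3.

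Genes of the extracellular matrix were lower in WTA. Of 32 probes for collagens and the enzymes that modify them, 23 fell and 0 rose, with a median difference of -0.92 against 0.02 for all probes. Besides Col11a1, they included Loxl3, a lysyl oxidase that crosslinks collagen (-1.61 ± 0.25), Col6a3 (-1.51 ± 0.27) and Col18a1 (-1.48 ± 0.14). Of 37 probes for other matrix proteins, proteases and their inhibitors, 15 fell and 1 rose, with a median of -0.45. Fbln1, which encodes fibulin 1, fell by 1.95 ± 0.27 on the log2 scale, Lama4, a laminin chain of basement membranes, by 1.78 ± 0.19, and Bgn, the proteoglycan biglycan, by 1.46 ± 0.30. Without the low-quality arrays the collagen list had 17 probes that fell and 0 that rose, and the other matrix list had 12 and 1. With all arrays, 21 collagen probes fell in WTD, 20 in D7E and 12 in D7F, and 0, 1 and 0 rose. The medians there were -0.93, -0.97 and -0.63, so this fall was not particular to WTA. In the other matrix list 7, 7 and 4 fell and 1, 1 and 0 rose (medians -0.28, -0.34 and -0.33). Markers of fibroblasts, a list that shares the collagens, moved as well. Of their 13 probes 4 fell (Fbln1, Col1a2, Col3a1 and, named after its value was seen, Col1a1) and 1 rose (Dpt), and the list's median was -1.08, -0.30 and -0.31 in the WTA cultures and 0.06 to 0.14 in the IM2 cultures. The part of this in the counts of matrix genes was not tested. In WTD, D7E and D7F, 4, 5 and 4 of the 13 fibroblast probes fell and 0 rose (medians -0.15, -0.72 and -0.43). In RNA from a whole culture, fewer cells of a type and less RNA per cell cannot be told apart.

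Genes of muscle fibres were higher. Of 50 probes for sarcomere proteins, 17 rose and 1 fell (median 0.45). The largest was Myl2, a slow and cardiac myosin light chain, at 2.88, 2.38 and 1.35 in WTA and 0.42 and 0.18 in the 2 IM2 cultures that measured it (1.91 ± 0.33, adjusted p = 0.0035). The groups did not overlap. Tmod4 and Tmod1, which cap the pointed end of the thin filament, rose by 1.49 ± 0.15 and 1.34 ± 0.19, and Mybph, a thick-filament protein, by 1.41 ± 0.33. The sarcomere median was much the same in the other lines, at 0.42 in WTD, 0.45 in D7E and 0.41 in D7F. There 3, 12 and 8 probes rose and 0, 2 and 0 fell.

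Among 28 probes for calcium handling and excitation, 4 rose and 0 fell (median 0.40). They were Chrnd, a subunit of the acetylcholine receptor at the nerve-muscle junction (1.02 ± 0.25), Trdn, the triadin that anchors the calcium store (0.85 ± 0.15), Ryr3, a calcium release channel (0.71 ± 0.17), and Casq2, a calcium buffer of that store (0.68 ± 0.15). A second Ryr3 probe gave 0.19 ± 0.73 and did not pass. Of 28 probes for the fuel supply of muscle, 8 rose and 0 fell (median 0.42). Fabp3 and Cd36, which carry fatty acids, rose by 1.36 ± 0.15 and 1.29 ± 0.14, Slc2a4, the insulin-regulated glucose transporter, by 1.13 ± 0.15, and Ldhb, a lactate dehydrogenase subunit, by 1.03 ± 0.22. The 3 lists had 11, 1 and 5 probes that rose and 0 that fell without the low-quality arrays. In WTD, D7E and D7F, 3, 5 and 2 calcium probes rose and 2, 2 and 1 fell (medians 0.50, 0.44 and 0.41). Of the fuel probes 3, 2 and 3 rose and 0 fell (medians 0.21, 0.30 and 0.21).

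The factors that direct the muscle programme moved both ways, with 5 of 32 probes higher and 6 lower (median 0.26). Mymk, the fusion protein myomaker, and Myf6, a late myogenic factor, rose by 1.12 ± 0.29 and 1.00 ± 0.12. Hey1, a Notch target, fell by 1.25 ± 0.23 on the log2 scale, Id2 and Id3, which hold myogenic factors inactive, by 1.14 ± 0.27 and 0.84 ± 0.15, and Mef2d, a partner of those factors, by 0.85 ± 0.18. Leaving out the low-quality arrays, 1 probe rose and 4 fell. Mymk, Id2, Mybph, Chrnd, Ryr3 and Casq2 missed the threshold without WTA culture 1. All of these but Casq2 missed it without a second culture too, which was IM2 culture 3 for Mybph and IM2 culture 1 for the other four, and Chrnd also without WTA culture 2. Marker lists of smooth muscle, endothelium, nerve and leukocytes (3 to 7 probes each) had 0 calls against IM2. Markers of fat cells had 2 of 7 probes higher, Slc2a4 and Plin4, and markers of bone and cartilage 1 of 2 lower, Mgp.

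Genes of cell division were lower more often than higher. Of 33 probes for DNA replication and nucleotide supply, 11 fell and 0 rose (median -0.33), among them Cdt1, which loads the replicative helicase (-1.64 ± 0.27), and Mcm3 and Mcm4, which form part of it (-1.59 ± 0.37 and -1.36 ± 0.27). Pold1, a DNA polymerase subunit, stood at -1.16 ± 0.30. Of 27 probes for mitosis, 7 fell and 0 rose (median -0.36). Cks1b, a partner of cyclin-dependent kinases, stood at -1.64, -1.18 and -1.51 in WTA and at -0.36 to 0.27 in IM2 (-1.42 ± 0.18, adjusted p = 0.00067), without overlap. Ncapg of condensin (-1.08 ± 0.25), Anln, which builds the contractile ring (-1.08 ± 0.26), Cenpa, the histone of the centromere (-0.95 ± 0.24), and Pold1 missed the threshold without WTA culture 1. Ncapg, Cenpa and Pold1 also missed it without IM2 culture 1, Cenpa and Pold1 without IM2 culture 3, and Cenpa without WTA culture 3. Cdk2, a cyclin-dependent kinase named after its value was seen, was higher in WTA (1.08 ± 0.31, limma, adjusted p = 0.046). Among genes of cell cycle exit, 4 of 24 probes rose and 2 fell. Cdkn2c, an inhibitor of the kinases that drive G1, rose by 0.91 ± 0.12 (adjusted p = 0.00074), and both Ccnd2 probes, for the cyclin those kinases need, were lower (-0.95 ± 0.22 and -0.71 ± 0.18), calls that were also lost without WTA culture 1, that of -0.71 without IM2 culture 1 as well. Without the low-quality arrays, the replication list had 5 and the mitosis list 2 probes that fell, and 0 that rose. With all arrays, 5, 12 and 10 replication probes fell in WTD, D7E and D7F and 0 rose (medians -0.19, -0.48 and -0.34). For mitosis 3, 11 and 9 fell and 0 rose (medians -0.26, -0.73 and -0.50).

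Stress genes of the endoplasmic reticulum were lower as well. Of 33 probes for the integrated stress response and the unfolded protein response, 15 fell and 0 rose (median -0.45). Ddit3, the factor CHOP, which both pathways switch on, stood at -2.26, -1.93 and -2.03 in WTA and at 0.20, -0.31 and -0.20 in IM2, and the difference of -1.97 ± 0.15 (adjusted p = 2.7e-05) was many times the spread within either line. Hspa5, the main chaperone of the endoplasmic reticulum, fell by 1.88 ± 0.26 on the log2 scale (adjusted p = 0.0007), while a second probe of that gene gave -0.10 ± 0.17 and did not pass. P4hb and Hsp90b1, which also fold secreted proteins, fell by 1.50 ± 0.21 and 1.38 ± 0.25. Pdia5, a related enzyme, stood at -1.99 ± 0.32 (adjusted p = 0.0022). With the low-quality arrays left out, 10 probes of the list fell and 0 rose. With all arrays, 10 fell in WTD, 13 in D7E and 11 in D7F, and 0 rose (medians -0.27, -0.48 and -0.33).

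Interferon-induced and antigen-presentation genes were lower more often than higher, with 11 of 32 probes lower and 1 higher (median -0.50). Isg15, a ubiquitin-like protein, stood at -1.67, -1.74 and -1.99 in WTA and between -0.11 and 0.19 in IM2 (-1.84 ± 0.14, adjusted p = 2.7e-05). Ifitm3, which blocks virus entry, fell by 1.24 ± 0.15 on the log2 scale, and Ifit3 by 1.06 ± 0.27. Both probes of Psmb8, a subunit of the immunoproteasome, were lower (-1.44 ± 0.18 and -0.60 ± 0.15). The Psmb8 probe at -0.60 and Ifit3 missed the threshold without WTA culture 1 or 3, the former also without IM2 culture 1 and the latter also without IM2 culture 2 or 3. The list had 9 probes lower and 0 higher without the low-quality arrays. With all arrays, 6 were lower in WTD, 9 in D7E and 8 in D7F, and 0, 1 and 0 higher (medians -0.20, -0.45 and -0.37). In the growth factor list, 4 of 14 probes fell and 0 rose, led by Igfbp7, an extracellular binding protein (-1.48 ± 0.16), although the list's median was 0.03. There 3, 4 and 4 probes fell in WTD, D7E and D7F and 1, 0 and 0 rose (medians -0.04, -0.19 and -0.25).

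In Pabpn1's own pathway 8.33% of probes passed, near the 11.5% of all probes. Of 36 probes for polyadenylation, poly(A) binding and deadenylation, 1 was higher, which was Pabpn1 itself, and 2 were lower, with a median of 0.00. Pabpc1, the cytoplasmic poly(A)-binding protein, stood at -1.14, -1.01 and -1.01 in WTA and at 0.13, -0.19 and -0.01 in IM2. Its difference of -1.03 ± 0.11 (adjusted p = 0.00021) had no overlap between the lines. Papolb, a testis poly(A) polymerase, stood at -0.51 ± 0.13 and missed the threshold without WTA culture 1 or IM2 culture 1 or 3. Among 67 probes for splicing factors 5 rose and 5 fell (median 0.02). Celf1, which regulates splicing in muscle, rose by 2.13 ± 0.23 on 1 probe, while its other probe gave 0.37 ± 0.26 and did not pass. Srsf5 rose by 1.07 ± 0.15. One Qk probe rose by 0.80 ± 0.23 and the other stood at -0.08 ± 0.13, and the first missed the threshold without IM2 culture 1 or 3, WTA culture 3 or WTD culture 2 or 3. Cytoplasmic ribosomal proteins had 6 of 70 probes lower and 0 higher (median -0.24), among them Rpl28 (-0.75 ± 0.14) and both Rpl23 probes (-0.56 ± 0.10 and -0.98 ± 0.28), the latter lost without WTA culture 1, D7E culture 1 or any 1 culture of WTD. Without the low-quality arrays the ribosomal count was 1 lower and 0 higher. Translation factors had 2 of 42 lower and 0 higher.

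Protein turnover genes were higher more often than lower. Of 36 probes for proteasome subunits, 10 rose and 0 fell (median 0.31), led by Psmc5 and Psmc1, ATPases of its base (0.91 ± 0.16 and 0.73 ± 0.16), Psmb5, a catalytic subunit (0.68 ± 0.19), and Psmd9, an assembly factor (0.61 ± 0.15). Of 51 probes for ubiquitin enzymes, 7 rose and 1 fell (median 0.26). Stub1, a ligase that works with chaperones, rose by 2.19 ± 0.44 on 1 probe, but its other probe gave 0.32 ± 0.17 and did not pass. Cul3 and Cul1, scaffolds of ubiquitin ligases, rose by 1.31 ± 0.38 and 0.99 ± 0.24, and Uchl3, a deubiquitinase, by 0.75 ± 0.18. Of 46 heat shock and chaperone probes, 4 rose and 0 fell, including Ptges3, an Hsp90 partner (0.91 ± 0.26), and Cryab, a small heat shock protein (0.74 ± 0.13), but with arrays centred this list had 1 higher and 1 lower, and with IM2 ratios given the opposite sign 2 higher and 3 lower. Psmb5, Psmd9, Cul3, Uchl3 and Ptges3 missed the threshold without WTA culture 1, Uchl3 also without IM2 culture 1, and Cul1 without IM2 culture 3. Of the 15 fits that left out 1 culture, Psmb5 missed it in 8, Cul3 in 10 and Ptges3 in 10. Without the low-quality arrays, the proteasome count was 2 higher and 0 lower and the ubiquitin count 3 and 0. With all arrays, 4, 7 and 2 proteasome probes rose in WTD, D7E and D7F and 0 fell (medians 0.31, 0.35 and 0.27). Of the ubiquitin probes 2, 4 and 0 rose and 0, 3 and 1 fell (medians 0.10, 0.13 and 0.14).

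Oxidative phosphorylation had 6 of 64 probes higher and 1 lower (median 0.23), with Atp5pb of the ATP synthase at 0.88 ± 0.18 and Ndufc2 of complex I at -0.90 ± 0.14. Cholesterol synthesis had 3 of 19 higher and 0 lower (median 0.48), led by Fdft1, squalene synthase, at 0.90 ± 0.11. In WTD, D7E and D7F, 0, 3 and 3 of these probes were higher and 0, 1 and 1 lower (medians 0.15, 0.33 and 0.29). Lysosome and autophagy genes had 1 of 33 probes higher and 1 lower, and apoptosis and p53 genes 5 of 35 higher and 4 lower. Of 17 probes for germ-line and early embryo genes, 3 rose and 4 fell, and most of these are named above, since this list was drawn up with such genes known. With IM2 ratios given the opposite sign, more probes were lower than higher in the apoptosis list (7 against 4) and the cell cycle exit list (5 against 3), and more were higher among translation factors (3 against 2).

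**Figure D2:**
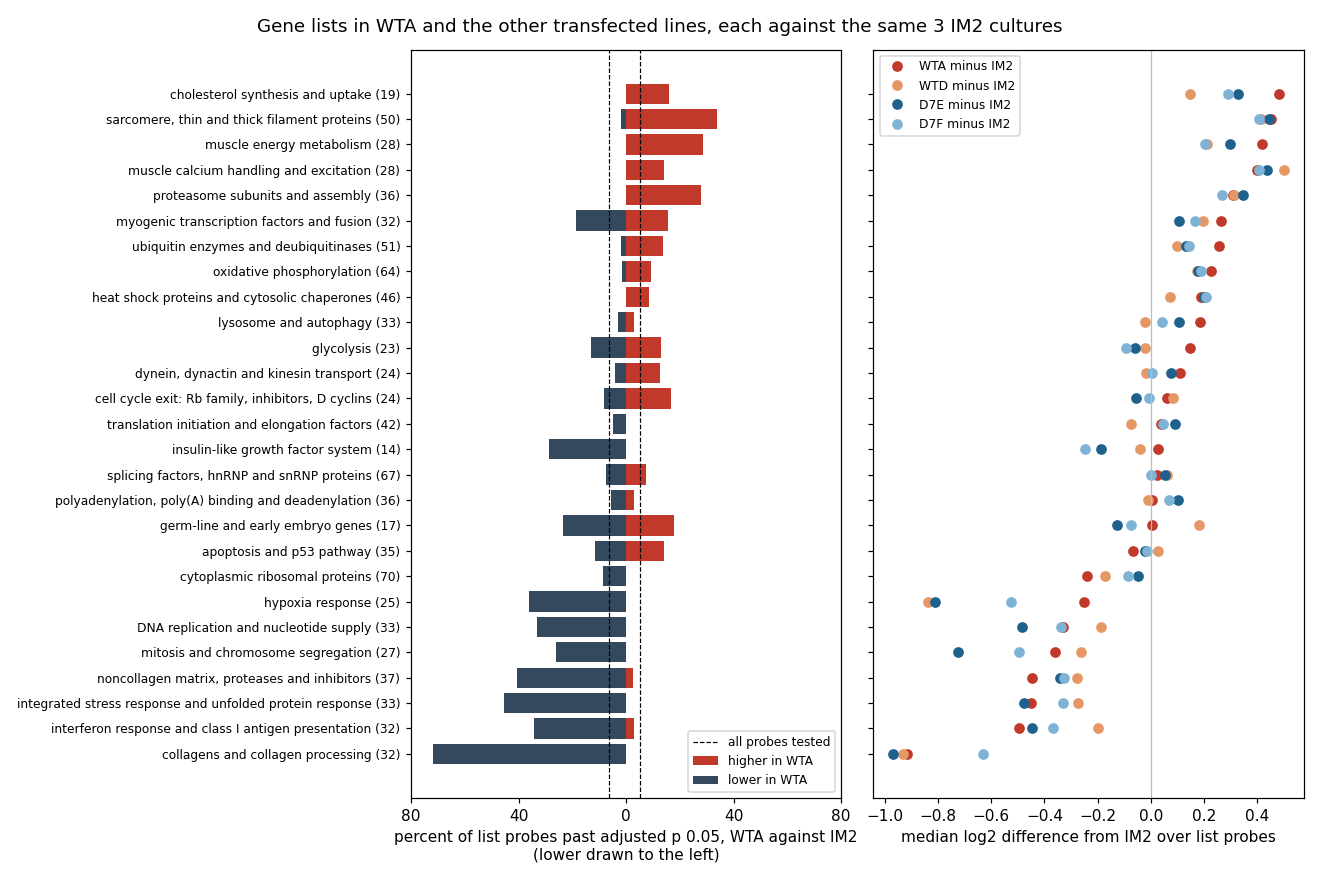
Left, percent of each list's probes (number in brackets) past adjusted p 0.05 in WTA against IM2, higher to the right and lower to the left, with dashed lines at 5.17% and 6.37% for all probes; right, the list's median log2 difference from IM2 in each transfected line. Collagens have 23 of 32 probes lower in WTA, and in the hypoxia list the WTA median of -0.25 lies above those of the other 3 lines.

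A second question was what set WTA apart from the other lines that carry Pabpn1. Against the mean of WTD, D7E and D7F, 153 probes passed (1.58% of 9710), 69 higher (0.711%) and 84 lower (0.865%) in WTA, and 1642 had an unadjusted p below 0.05. With every array centred on its median the count was 177 higher and 84 lower, so that the share of higher calls went from 45.1% to 67.8% while the median of all probes moved from 0.00 to 0.07. Without WTA culture 1 it was 59, without WTA culture 2 it was 234 and without IM2 culture 2 it was 268. Against single lines, 172 probes passed against WTD (1.77%; 0.855% higher and 0.917% lower), 159 against D7E (1.64%; 1.02% and 0.618%) and 28 against D7F (0.288%; 0.124% and 0.165%), comparisons that share the WTA cultures. Centring the arrays took the share of higher calls from 48.3% to 68.0% against WTD, from 62.3% to 71.1% against D7E (74.8% when also scaled) and from 42.9% to 57.9% against D7F. The D7E split of 99 higher and 60 lower became 50 and 53 without the low-quality arrays and 31 and 41 with a replicate block. The 3 WTA cultures lay apart from the 9 other transfected cultures for 386 of 6589 probes measured in all 12 (5.86%). Of the 153 probes, 40 were higher and 61 lower both than the other lines and than IM2, 5 were lower than IM2 but higher than the other lines, and 47 did not pass against IM2.

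Requiring WTA to differ from IM2 and from each other line with 1 sign left 9 of 9710 probes (0.0927%), 9 lower and 0 higher in WTA, and all 9 on part I. One of these probes has no gene name here. The other 8 named Padi2, Dpep1, Mapk12, Pacsin1, Rag2, Pcbd1, Ramp1 and Gpr50. The tests against IM2 and the other lines share the WTA cultures, so they are not independent of each other.

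Padi2 encodes an enzyme that converts arginine in proteins to citrulline. It stood at -1.98, -1.37 and -2.35 in the WTA cultures and at -0.67, 0.15 and -0.28 in IM2. The cultures of WTD, D7E and D7F lay between -0.60 and 0.72, so no other culture of the series reached the WTA values. WTA was lower than the other transfected lines by 3.88-fold (-1.96 ± 0.20, adjusted p = 0.0005) and lower than IM2 by 3.10-fold (-1.63 ± 0.24, adjusted p = 0.0015).

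Dpep1, a membrane dipeptidase that cleaves leukotrienes and cysteinyl-glycine, stood at -2.46, -1.39 and -1.63 in WTA and between -0.47 and 0.21 in the 12 cultures of the other 4 lines. WTA differed from the other transfected lines by -1.71 ± 0.18 (adjusted p = 0.0006). Rag2, one of the recombinase genes of lymphocytes, stood at -0.85, -0.95 and -1.15 in WTA and between -0.20 and 0.37 elsewhere, with a difference from the other transfected lines of -1.15 ± 0.08 (adjusted p = 3.7e-05). Both sets of WTA values lay clear of every other culture.

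Mapk12, the p38 kinase that is most abundant in skeletal muscle, stood at -1.02, -0.81 and -0.53 in WTA, at 0.05 to 0.37 in IM2 and at 0.21 to 0.62 in the other transfected lines (-1.23 ± 0.12 against the latter, adjusted p = 0.00042). Ramp1, which makes a receptor for the peptide CGRP, differed by -0.88 ± 0.11 (adjusted p = 0.0032), with WTA at -1.23 to -0.73 and the 11 other measured cultures at -0.35 to 0.20. Gpr50, an orphan receptor related to the melatonin receptors, differed least, by -0.52 ± 0.08 (adjusted p = 0.0057). Ramp1 missed the threshold with limit values kept (adjusted p = 0.603), and Gpr50 with the Cy5 arrays alone (-0.06, adjusted p = 0.907).

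Pacsin1, an adaptor of endocytosis, stood at -0.38, -0.49 and -0.57 in WTA, at -0.25 to 0.09 in IM2 and at 0.46 to 1.08 in the other transfected cultures. Its difference of -1.33 ± 0.09 from those lines had an adjusted p of 3e-05, while the one from IM2 was -0.43 ± 0.11 (adjusted p = 0.024). WTD and D7E were above IM2 by 1.09 ± 0.11 and 1.00 ± 0.11 and D7F by 0.61 ± 0.11. Pcbd1, which recycles the biopterin cofactor and also binds the transcription factor HNF1, stood at -0.71, -0.37 and -0.75 in WTA and at 0.16 to 0.78 in the other transfected cultures (-1.07 ± 0.11, adjusted p = 0.0005). Without 1 culture, Pcbd1 and Pacsin1 kept their calls against the other lines but each lost the one against IM2 once (without WTA culture 1 and without IM2 culture 3).

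**Figure D3:**
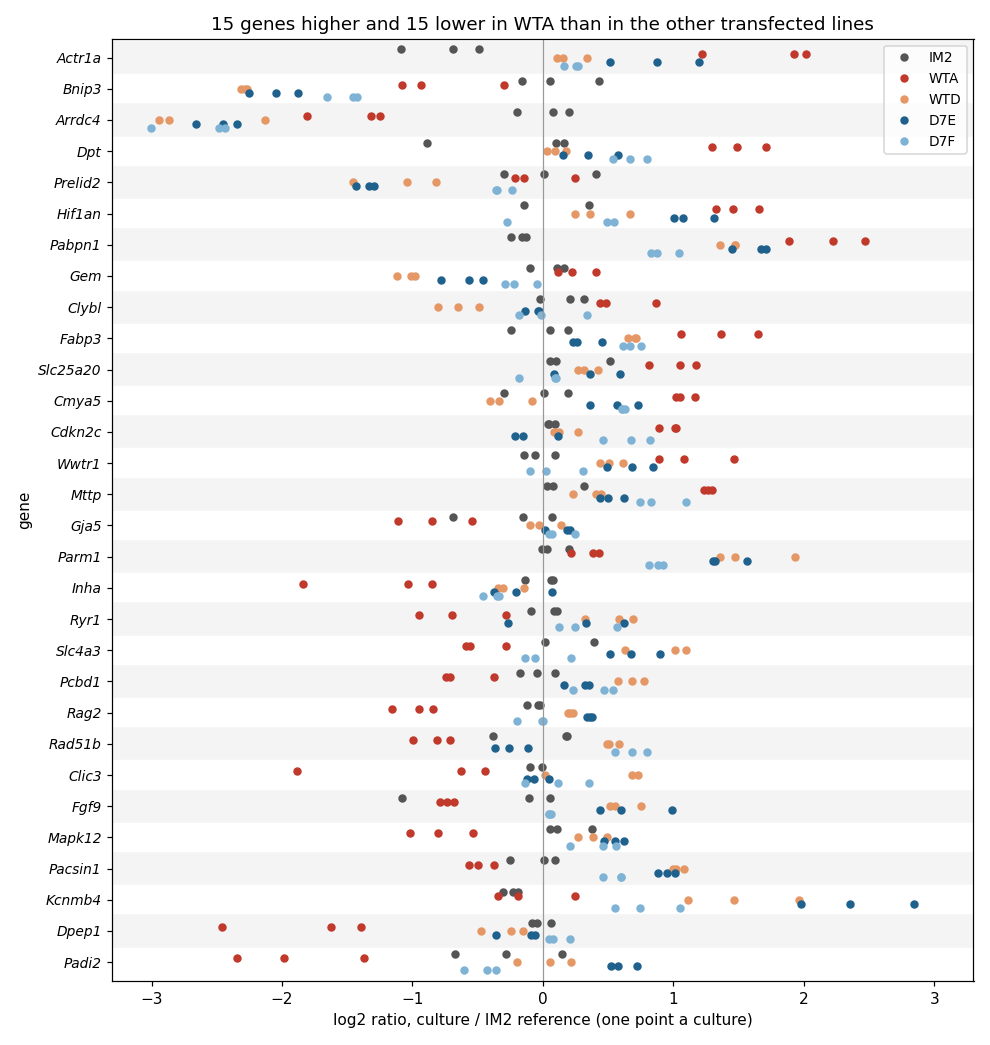
Log2 ratio of every culture to the IM2 reference (horizontal axis), coloured by line, for the 15 genes with the largest positive and the 15 with the largest negative differences between WTA and the mean of the other transfected lines among those where the WTA cultures lie apart. Bnip3 and Arrdc4 are below 0 in all transfected cultures but less so in WTA, and Kcnmb4 is near 0 in WTA and IM2 and above 0 in the other lines.

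Other genes lower in WTA than in the other transfected lines differed in where IM2 stood. Rad51b, a recombination protein (-1.16 ± 0.13), and Inha, the inhibin alpha chain (-0.97 ± 0.17), were also below IM2, at -0.83 ± 0.15 and -1.24 ± 0.21. Slc4a3, an anion exchanger, differed by -1.02 ± 0.15 on 1 probe, and its other probe gave -0.25 ± 0.11 and did not pass. Tcstv1 differed by -1.82 ± 0.26, and its lowest D7F value of -2.42 overlapped WTA. Gja5, a gap junction protein (-0.92 ± 0.15), Fgf9, a growth factor (-1.18 ± 0.20), and Clic3, a chloride channel (-1.17 ± 0.26), did not pass against IM2, and against the other lines they missed the threshold without WTA culture 1. Clic3 missed it in 9 of the 13 fits without 1 culture that could test it.

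Kcnmb4, a subunit of the large calcium-activated potassium channel, stood at -0.19, 0.25 and -0.35 in WTA and at -0.19, -0.23 and -0.30 in IM2, which overlap. The other lines were higher, at 1.11 to 1.96 in WTD, 1.98 to 2.85 in D7E and 0.55 to 1.05 in D7F. WTA differed from them by -1.66 ± 0.21 (adjusted p = 0.0019), and from IM2 by 0.14 ± 0.25 (adjusted p = 0.76). Parm1, a mucin-like protein, had the same order on 1 probe (WTA 0.21 to 0.43, other transfected cultures 0.81 to 1.93, difference -0.94 ± 0.13), and its second probe gave -0.73 ± 0.20 and did not pass (adjusted p = 0.09).

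Cdkn1c, the p57 inhibitor that accompanies cell cycle exit, separated the lines in another way. It stood at -0.34, -0.38 and -0.18 in WTA, at -0.55 to 0.07 in IM2 and at -0.50 to -0.17 in D7F, which overlap, but at 1.36 to 1.49 in WTD and 1.02 to 1.11 in D7E. The difference of WTA from the mean of the other lines was -1.03 ± 0.12 (adjusted p = 0.0014), although WTA and D7F overlap. Pvalb, the calcium buffer of fast muscle fibres, had the opposite layout. It was 0.49 to 0.56 in WTA and 0.47 to 0.69 in D7F, -1.92 to -1.55 in WTD and -0.88 to -0.45 in D7E (WTA against the other lines 1.11 ± 0.14, adjusted p = 0.0019).

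Among the genes higher in WTA than in the other transfected lines, Actr1a led, at 1.29 ± 0.19 (adjusted p = 0.0049), with the 9 other transfected cultures at 0.11 to 1.20. Dynlt3, a light chain of the same dynein motor, was higher by 1.12 ± 0.17 (adjusted p = 0.0058), with WTA at 0.87, 1.39 and 1.09 and the 8 other cultures that measured it at -0.52 to 0.59. These were the 2 called of 24 probes for dynein, dynactin and kinesin. Gem, a GTPase that restrains calcium channels, stood at 0.22, 0.12 and 0.41 in WTA and at -1.12 to -0.05 in the other lines (0.86 ± 0.10, adjusted p = 0.0014). It did not pass against IM2 (0.19 ± 0.12). Prelid2 (0.89 ± 0.16) did not pass against IM2 either (-0.08 ± 0.20), nor did Vldlr, a lipoprotein receptor (0.63 ± 0.10 against the other lines, -0.09 ± 0.12 against IM2). For Vldlr the differences from IM2 were -0.63 ± 0.12 in WTD, -0.81 ± 0.12 in D7E and -0.72 ± 0.12 in D7F.

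Several genes of fuel use and of differentiated muscle exceeded the other lines as well, while other muscle genes were lower. Against those lines 2 of 28 fuel probes were higher and 0 lower, and 2 of 50 sarcomere probes were higher and 1 lower. For calcium handling it was 1 higher and 1 lower of 28, and for myogenic factors 1 higher and 2 lower of 32. Over all probes 0.711% were higher and 0.865% lower. Mapk12, given above, and Ryr1 and Mef2d, given below, were lower in WTA. Fabp3 stood at 1.65, 1.36 and 1.06 in WTA and at 0.23 to 0.75 in the other transfected cultures (0.80 ± 0.12, adjusted p = 0.0073). Slc25a20, the carnitine carrier of mitochondria, was higher by 0.79 ± 0.13, Clybl, a mitochondrial lyase, by 0.82 ± 0.14, Mttp, which loads lipid onto lipoproteins, by 0.68 ± 0.10, Slc2a4 by 0.61 ± 0.13 and Fdft1 by 0.45 ± 0.09. Cmya5, a protein of the muscle Z disc, was higher by 0.78 ± 0.12 (adjusted p = 0.0057), Tmod4 by 0.73 ± 0.12 and Myf6 by 0.61 ± 0.10, although Tmod4 and Slc2a4 values of D7F overlapped those of WTA, and neither passed against D7F alone (0.05 and 0.24). Cdkn2c stood at 0.89, 1.01 and 1.02 in WTA and at -0.21 to 0.82 in the other transfected cultures, a difference of 0.73 ± 0.10 (adjusted p = 0.0031). Dpt (1.12 ± 0.19), Wwtr1, the coactivator TAZ (0.72 ± 0.13), Hif1an, an inhibitor of hypoxia-inducible factor (0.88 ± 0.19), and Pdcd4 (0.88 ± 0.17) were higher too, but Pdcd4 overlapped D7E, which reached 1.26 where the lowest WTA value was 0.95. Dpt, Prelid2, Hif1an, Wwtr1, Vldlr, Slc2a4, Tmod4, Myf6, Pdcd4 and Fdft1 missed the threshold without WTA culture 1, with adjusted p-values of at most 0.148. Pdcd4 missed it without WTA culture 3 too, and in all Slc2a4 missed it in 4 of 15 fits, Fdft1 in 5 of 15 and Hif1an in 6 of 13.

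Some matrix and regulatory genes were lower in WTA than in the other lines. Timp1, a metalloprotease inhibitor, stood at -1.46, -0.91 and -1.55 in WTA, at -0.11 to -0.00 in IM2 and at -0.89 to -0.15 in the other transfected cultures (-0.86 ± 0.13, adjusted p = 0.0055). Ccn2, a matrix growth factor, differed by -1.02 ± 0.18, Nid1, a basement membrane protein, by -0.77 ± 0.16, Col11a1 by -0.79 ± 0.16 and Col18a1 by -0.60 ± 0.12. These were among 5 of 37 and 3 of 32 probes of the matrix lists that passed, with 0 higher. Id3 differed by -0.78 ± 0.12, Mef2d by -0.82 ± 0.14, Atf5, a stress-response factor, by -0.60 ± 0.09 and Isg15 by -0.62 ± 0.12. Isg15 in D7E (-1.80 to -1.48) overlapped WTA, with a difference of -0.17 from that line (adjusted p = 0.64). The lowest D7E value of Col11a1, -2.25, also lay below the highest of WTA, -2.18. For Ryr1, the main calcium release channel of skeletal muscle, 1 of 4 probes passed (-1.0 ± 0.19), and the others gave -1.17 ± 0.32, 0.10 ± 0.19 and 0.16 ± 0.24. Without WTA culture 1, Ccn2, Nid1, Col11a1, Col18a1, Mef2d, Isg15 and Ryr1 missed the threshold, as did Isg15 and Ryr1 without WTA culture 3 and Nid1 without WTD culture 3 or D7F culture 1, and Col11a1 stood at 0.16 with arrays centred and scaled.

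Of 25 probes for genes that respond to low oxygen, 9 fell and 0 rose against IM2, with a median of -0.25, where WTD had 12 and 0 (median -0.84), D7E 12 and 1 (median -0.81) and D7F 7 and 0 (median -0.53), all against the same IM2 cultures. Over all probes 7.03% passed in WTD (2.08% higher and 4.95% lower), 12.3% in D7E (4.12% and 8.22%) and 4.51% in D7F (1.6% and 2.91%). The median of WTA against the mean of those lines was 0.24, beside 0.00 for all probes, and 1 of the 25 probes passed in that comparison. Both Ndrg1 probes, for a differentiation and stress protein, were among the lowest in WTA (-2.70 ± 0.21 and -2.05 ± 0.40), as were Ero1a, which drives disulphide formation in the endoplasmic reticulum (-2.67 ± 0.22, adjusted p = 4.7e-05), Adm, the peptide adrenomedullin (-2.01 ± 0.26), and Hmox1, haem oxygenase (-1.30 ± 0.16, named after its value was seen). Against the other lines neither Ndrg1 probe (0.24 ± 0.18 and -0.08 ± 0.32), Ero1a (-0.26 ± 0.18) nor Adm (0.81 ± 0.21) passed, and Adm differed from D7F by 0.018.

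Bnip3, a mitophagy receptor and classic hypoxia target, stood at -0.93, -1.08 and -0.30 in WTA, at 0.43, -0.16 and 0.05 in IM2, and at -2.31 to -1.43 in the other 9 cultures. WTA lay between the 2 sets, and its gap from the other transfected cultures was a condition for choosing this gene. It was below IM2 by -0.88 ± 0.20 (adjusted p = 0.015), a call lost without WTA culture 1 or IM2 culture 1, and above the other lines by 1.18 ± 0.16 (adjusted p = 0.0038). Arrdc4, an arrestin that answers to glucose and restrains glucose uptake, had the same order, with -1.81, -1.32 and -1.25 in WTA, -0.20 to 0.20 in IM2 and -3.01 to -2.13 in the other cultures (-1.49 ± 0.24 against IM2, 1.13 ± 0.19 against the other lines). Its difference from the other lines was 0.97 without the low-quality arrays (adjusted p = 0.0728). Pfkl, the liver form of phosphofructokinase, was the third of the 5 such probes, at -0.48 ± 0.14 against IM2 and 0.68 ± 0.11 against the other lines. Its D7F values of -0.64, -0.57 and -0.37 overlapped the -0.61, -0.59 and -0.11 of WTA, and the difference from D7F was 0.09 (adjusted p = 0.89). The remaining ones, Fam162a (-0.89 and 0.65) and Mif (-0.46 and 0.71), are named after their values were seen, and both overlapped D7F. In glycolysis as a whole, 3 of 23 probes rose and 3 fell against IM2. Eno2 and Pgam1 were lower (-1.53 ± 0.19 and -0.99 ± 0.16) and did not differ from the other lines past the threshold (0.06 ± 0.16 and 0.37 ± 0.13).

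The stretches upstream of 4 of these genes show the letters that the oxygen and stress pathways are known to read, and they are printed to set side by side Bnip3 and Arrdc4, which stood above the other lines in WTA, and Ero1a and Hspa5, which did not pass against those lines (-0.26 ± 0.18 and -0.58 ± 0.21). Each is the 250 bases before the RefSeq start of the gene on GRCm38.p6, 5′ to 3′ on the gene's strand. Capitals mark ACGTG on either strand (the core of the hypoxia response element, also held by E-boxes, where both strands match and overlap) and the fixed letters of the endoplasmic reticulum stress element (CCAAT and CCACG, 9 bases apart, either strand).
Bnip3, minus strand of chr7:138909507-138909756: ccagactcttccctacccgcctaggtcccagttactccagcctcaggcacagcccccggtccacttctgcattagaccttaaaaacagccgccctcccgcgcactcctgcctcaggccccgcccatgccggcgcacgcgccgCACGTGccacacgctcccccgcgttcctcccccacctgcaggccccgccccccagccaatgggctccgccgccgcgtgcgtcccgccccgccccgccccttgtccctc
Arrdc4, minus strand of chr7:68749239-68749488: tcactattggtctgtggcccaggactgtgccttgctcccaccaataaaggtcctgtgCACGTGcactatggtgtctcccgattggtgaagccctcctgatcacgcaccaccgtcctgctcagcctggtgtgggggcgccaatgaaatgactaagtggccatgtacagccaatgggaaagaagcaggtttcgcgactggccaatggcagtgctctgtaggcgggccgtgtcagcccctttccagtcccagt
Ero1a, minus strand of chr14:45318573-45318822: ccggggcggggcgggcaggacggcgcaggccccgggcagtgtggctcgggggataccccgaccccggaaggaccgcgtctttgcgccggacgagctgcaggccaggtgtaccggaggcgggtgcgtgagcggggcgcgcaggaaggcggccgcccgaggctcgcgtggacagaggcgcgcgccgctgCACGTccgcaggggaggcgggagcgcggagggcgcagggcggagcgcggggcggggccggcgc
Hspa5, plus strand of chr2:34771840-34772089: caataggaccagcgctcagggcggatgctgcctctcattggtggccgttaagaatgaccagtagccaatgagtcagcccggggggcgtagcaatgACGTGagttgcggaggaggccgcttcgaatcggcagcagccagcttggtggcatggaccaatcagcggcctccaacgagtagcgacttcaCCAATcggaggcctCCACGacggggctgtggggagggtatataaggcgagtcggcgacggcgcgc
The 4 genes each hold ACGTG, which 16.6% of 32851 promoter windows of this length hold on either strand. Hspa5 also holds the stress element, which 0.113% hold. A match is a description of these letters, and binding was not measured. The 4 genes were picked by hand with their values known, so these shares are no test of enrichment. ACGTG occurs in both pairs and does not separate them.

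Positions on the chromosomes, which took no part in choosing the probes, were uneven in WTA. Of 628 probes on chromosome 7, 10 rose (1.59%) and 72 fell (11.5%) against IM2, where the other 19 chromosomes with at least 200 probes had 3.51% to 12.8% higher and 3.04% to 8.42% lower. Their median was -0.10, and the medians of those 19 chromosomes lay between -0.01 and 0.09. In the single cultures the chromosome 7 median was -0.10, -0.10 and -0.18 in WTA and -0.04, 0.04 and 0.00 in IM2, beside medians over all probes of 0.07, -0.01 and -0.05 in WTA. All 3 WTA cultures thus lay below all 3 IM2 cultures.

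Both array parts, which share no probes, had this split, with 8 higher and 43 lower of 359 probes on part I and 2 higher and 29 lower of 269 on part II. These are 2.23% and 11.98% on part I, where 8.08% of all probes were higher and 7.25% lower, and 0.743% and 10.8% on part II, where all probes had 2.49% and 5.57%. The chromosome 7 median was 0.02 on part I, where that of all probes was 0.13. On part II it was -0.19, beside -0.05 for all probes, so only part II had a median below 0. Ordered along the chromosome and divided into 10 stretches of 62 or 63 probes, every stretch had more probes lower (6 to 10) than higher (0 to 3). Without the low-quality arrays, 7 probes of chromosome 7 were higher and 40 lower. Against the other transfected lines the chromosome 7 median was -0.09, below the -0.04 to 0.07 of the other chromosomes. In that comparison 3 probes were higher (0.478%) and 11 lower (1.75%). Both shares lay within those of the other 19 chromosomes, 0.199% to 1.80% higher and 0% to 1.97% lower. Part I held 2 higher and 11 lower of 359, and part II 1 higher and 0 lower of 269. The 3 higher were Bnip3, Arrdc4 and Fxyd1, a regulator of the sodium pump (0.63 ± 0.13, overlapping WTD, named after its value was seen), and Cdkn1c, Atf5 and Ryr1 were among the 11 lower. D7F had 7 probes of chromosome 7 higher (1.1%) and 38 lower (6.05%) against IM2 and a median of -0.10. WTD had 13 (2.07%) and 35 (5.57%) with a median of 0.03, and D7E 29 (4.62%) and 52 (8.28%) with a median of -0.02. Over all probes D7F had 1.6% higher and 2.91% lower, WTD 2.08% and 4.95%, and D7E 4.12% and 8.22%. No test was run on the chromosome as a unit.

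Chromosome 14 had the reverse, with 38 of 296 probes higher (12.8%) and 9 lower (3.04%) in WTA, the highest and the lowest share of the 20 chromosomes. Pabpn1 itself lies on this chromosome, and a link between the transfected gene and these calls was not tested. On this chromosome D7E had 33 higher (11.15%) and 14 lower (4.73%), D7F 18 (6.08%) and 5 (1.69%) and WTD 15 (5.07%) and 11 (3.72%) against the same IM2 cultures. Over all probes 4.12%, 1.6% and 2.08% were higher in these lines. In each of them chromosome 14 had the highest share of higher probes of the 20 chromosomes, so this excess was not particular to WTA. Against the other transfected lines, 4 probes of chromosome 14 were higher in WTA (1.35%) and 2 lower (0.676%), beside 0.711% and 0.865% of all probes.

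**Figure D4:**
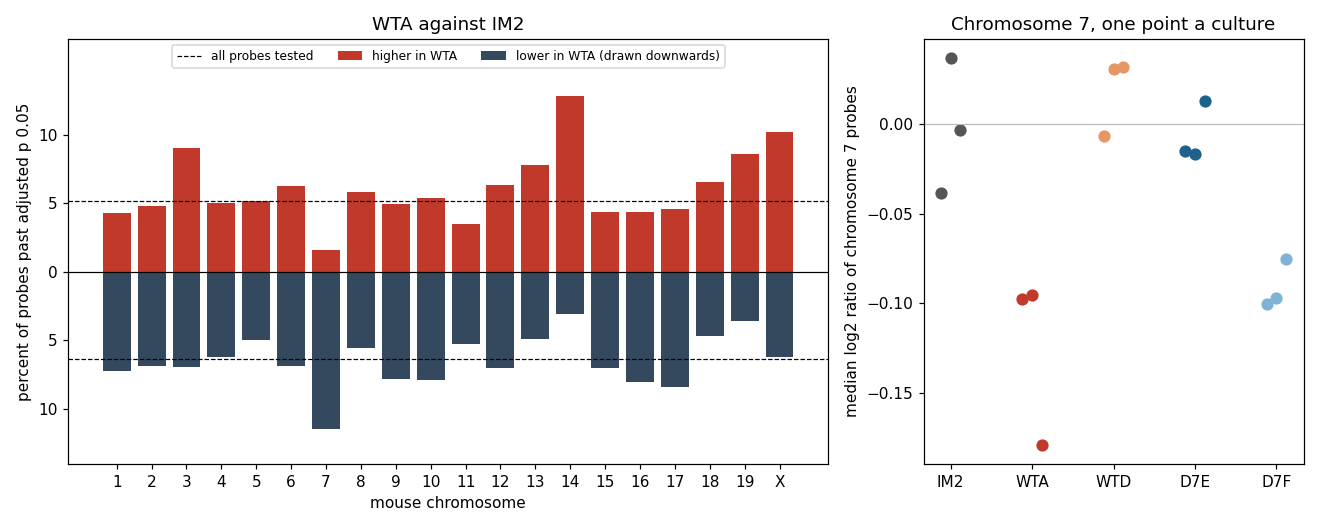
Left, percent of probes on each mouse chromosome past adjusted p 0.05 in WTA against IM2, higher upwards and lower downwards, with dashed lines at 5.17% and 6.37% for all probes; right, median log2 ratio of the 628 chromosome 7 probes in each culture. Chromosome 7 has 10 probes higher and 72 lower, and its medians are -0.18 to -0.10 in the WTA cultures.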

How the data were processed

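The authors deposited 1 log ratio per spot and array, read here as log10 because the deposited values stop at -2 and 2; scanning, background correction and normalisation were not described in the labels or headers. Dyes were taken from the channel sources, which for WTA culture 3 on part I are the reverse of the array titles. The description of 1 D7F array calls its level high, against its title, and the title was used. Values at -2 or 2 were dropped, the rest multiplied by 3.3219 to give log2, identical rows collapsed, and both dye orientations of a culture averaged, both being required. Probes with 2 or more measured cultures per line (9710, for 8111 genes) were fitted in limma 3.58.1 (R 4.3.3; lmFit, eBayes), each part on its own, with 5 lines in 1 model. Benjamini-Hochberg adjustment ran over both parts, and an adjusted p below 0.05 is called a pass. Fits were tested on simulated data. Ratios carry no depth, and the number of arrays limits the precision.

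Probes were tied to genes by the platform annotation, which can be old, and renamed by Entrez identifier from the RefSeq table (GRCm38.p6). On parts I and II, 6722 and 9239 distinct probes took a RefSeq name, 30 and 648 kept the annotation's symbol, 7 and 114 had several genes and were not named, 730 and 4204 have no name here, and 111 and 121 were left out as controls. Named genes are the 15 largest rises and falls in each comparison among probes measured in all cultures compared whose groups do not overlap, the probes that set WTA apart from every other line, up to 4 called members of each gene list, Pabpn1, and other probes of these genes; exceptions are marked. The comparison, the lists and this rule were chosen with earlier results of these data known. Lists are described by counts and medians, with no set test. Alternatives were limit values kept, arrays centred or also scaled, the sign of IM2 arrays turned, WTA against 0, only the lines compared, 3 rules on missing values, each dye alone, low-quality arrays left out, a replicate block, and each culture left out. Counts of list members and of chromosome 7 probes under each alternative, and of both array parts apart, were added after the data were examined.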

Additional observations from a re-analysis of the deposited data

Results flagged for a closer look

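The difference between WTA and IM2 was set against the same difference in WTD, D7E and D7F by testing WTA against the mean of those 3 lines (limma, adjusted over 9710 probes). The 52 named genes that passed are listed with that log2 difference from the mean of the 3 lines. Taken against each line alone, 49 of them passed against WTD, 34 against D7E, 16 against D7F and 8 against every line, and for 9 (Cdkn1c, Col11a1, Isg15, Pdcd4, Pfkl, Pvalb, Slc2a4, Tcstv1 and Tmod4) the WTA cultures overlapped those of another transfected line. Higher in WTA were Actr1a (1.29), Bnip3 (1.18), Arrdc4 (1.13), Dpt (1.12), Dynlt3 (1.12), Pvalb (1.11), Prelid2 (0.89), Hif1an (0.88), Pdcd4 (0.88) and Pabpn1 (0.87). To these add Gem (0.86), Clybl (0.82), Fabp3 (0.80), Slc25a20 (0.79), Cmya5 (0.78), Cdkn2c (0.73), Tmod4 (0.73), Wwtr1 (0.72), Mttp (0.68), Pfkl (0.68), Vldlr (0.63), Slc2a4 (0.61), Myf6 (0.61) and Fdft1 (0.45). Lower in WTA were Padi2 (-1.96), Tcstv1 (-1.82), Dpep1 (-1.71), Kcnmb4 (-1.66), Pacsin1 (-1.33), Mapk12 (-1.23), Fgf9 (-1.18), Clic3 (-1.17), Rad51b (-1.16) and Rag2 (-1.15). Smaller negative differences were those of Pcbd1 (-1.07), Cdkn1c (-1.03), Slc4a3 (-1.02), Ccn2 (-1.02), Ryr1 (-1.0), Inha (-0.97), Parm1 (-0.94), Gja5 (-0.92), Ramp1 (-0.88) and Timp1 (-0.86), and of Mef2d (-0.82), Col11a1 (-0.79), Id3 (-0.78), Nid1 (-0.77), Isg15 (-0.62), Col18a1 (-0.60), Atf5 (-0.60) and Gpr50 (-0.52). Groups of 3 cultures are too small to single out 1 culture as apart from the others.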

How the results depend on the processing

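The counts of probes past the threshold depended on the processing. Against IM2 (1121 probes), they were 677 with limit values kept, 381 with arrays centred and scaled, 2369 with WTA tested against 0, 1 with only both lines in the fit, 639 with 1 dye orientation enough, 590 and 290 with Cy3 or Cy5 arrays alone and 582 without low-quality arrays; leaving out single cultures gave 605 to 1274. Keeping limit values moved the median difference of all probes from IM2 from 0.02 to 0.15. Against the other transfected lines (153), they were 70 with limit values kept, 261 with arrays centred, 403 with every culture measured, 64 with 1 dye orientation and 29 with Cy5 alone, and 59 to 268 without single cultures. Against WTD (172): 79 with limit values kept, 5 with only both lines, 300 with every culture measured, 79 with 1 orientation, 73 with Cy3 and 41 with Cy5 alone, and 84 to 258 without single cultures. Against D7E (159): 45, 2, 375, 33, 37 and 10 in the same order, 65 with 2 cultures of the lines compared (29 higher and 36 lower; with Cy3 alone 11 and 26), 103 without low-quality arrays and 47 to 299 without single cultures. Against D7F (28): 17 with limit values kept, 0 with only both lines (limma; 860 with an unadjusted p below 0.05), 43 with every culture measured, 5 with Cy5 alone, and 15 to 75 without single cultures.

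List members called against IM2 were 140 with limit values kept, 81 with arrays centred and scaled, 375 with WTA against 0, 0 with only both lines (limma; 1792 of all 10628 probes with an unadjusted p below 0.05), 129 with 1 orientation, 131 with Cy3 and 66 with Cy5 alone, 125 without low-quality arrays, and 137 to 238 without single cultures. Chromosome 7 probes lower in WTA (72) were 43, 24, 141, 0, 42, 17 (Cy5) and 40 in those settings and 51 to 84 without single cultures. The replicate numbers were not taken to pair the samples: deviations of same-numbered cultures correlated above 0.1 in 8 of 30 pairs (-0.247 to 0.471, the highest for WTA with D7F), and at -0.157 to -0.136 for IM2 with WTA. A replicate block gave 1092 probes against IM2, 131 against the other lines and 72 against D7E.

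Of 4235 values of named differences under alternatives, 3599 kept direction and call, 630 missed the threshold and 6 reversed: with IM2 signs turned, Snrpb to -0.77, Tcte3 to -0.17, Scd1 to -1.92 and Ptges3 to -0.010; with WTA against 0, Scd1 to -0.037; with arrays centred and scaled, Col11a1 against the other lines to 0.16. The cause was not tested. All 6 low-quality arrays belong to WTA culture 1 or to IM2, and a probe near background cannot be told from a measured one, since the ratios carry no signal level.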
